A study of Mus musculus with 12 samples.

Results

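The potassium channel genes of mouse striatum are described here across an experimental model of Parkinson's disease. They were taken by name, as every gene whose symbol begins with Kcn followed by letters and a number, which gave 94 of the 52169 gene symbols measured, carried by 581 of 189364 named transcripts. Each gene is represented by its transcript with the highest mean level over the 12 libraries. The mice were C57BL/6J, and all of them received the toxin 6-OHDA into the medial forebrain bundle of the right hemisphere after desipramine, which spares noradrenergic neurons, so that the right striatum lost dopamine input and the left striatum served as the unlesioned side. After 2 weeks the mice were given L-DOPA, the precursor of dopamine, at 10 mg/kg with 7.5 mg/kg benserazide, either once (acute) or daily for 9 days (chronic), and striatum was punched out 1 h after the last dose. The 4 groups of 3 libraries are therefore the acute unlesioned, acute lesioned, chronic unlesioned and chronic lesioned striatum. No group of this series is without the toxin, and none is without L-DOPA, so a lesion difference here is a difference under L-DOPA.

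Potassium channels let potassium ions leave the cell, which brings the membrane back toward rest and limits how often a neuron fires. The pore subunits of voltage-gated channels come from the Kcna, Kcnb, Kcnc, Kcnd, Kcnh and Kcnq families, and the Kcnf, Kcng, Kcns and Kcnv subunits form no current alone but alter channels built with Kcnb subunits. Inward rectifiers (Kcnj) hold the medium spiny neurons, the output neurons of the striatum, at a very negative resting potential, and the Kcnn, Kcnt and Kcnk families add currents that set excitability and respond to calcium, sodium or transmitters. Small auxiliary subunits (Kcnab, Kcnip, Kcne, Kcnmb) change the gating and the surface number of the pore subunits.

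Summed over all transcript rows, each library held from 87695043 to 173116525 counts, and transcripts of the same gene overlap, so that a read may enter more than 1 row. The sum of 9 medium spiny neuron markers, all detected, lay between 1798 and 2422 counts-per-million units (CPM) in every library. Chronic unlesioned replicate 2 stood apart, with a summed level of 12 choroid plexus markers of 499.1 CPM against 4.17 to 12.1 CPM in the other 11 libraries. Libraries also differed in 8 markers of cortical glutamatergic neurons, all of them detected, whose sum lay at 15.98 to 33.7 CPM in the acute unlesioned, 5.81 to 19.7 CPM in the acute lesioned, 11.5 to 46.3 CPM in the chronic unlesioned and 4.89 to 26.5 CPM in the chronic lesioned group. In bulk tissue, fewer cells of a type and less RNA in each cell cannot be told apart.

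Channel genes spanned a wide range of levels. A total of 22 had a mean of at least 10 CPM, 34 lay from 1 to 10 CPM and 38 lay under 1 CPM, of which 8 reached at most 3 counts in any library. Per kilobase of transcript, the scale on which genes can be compared, the auxiliary subunits Kcnab1 (28.02 CPM per kilobase) and Kcnip2 (25.1) and the inward rectifier Kcnj4 (23.2) led, and Kcnab2 (14.4) and the leak channel Kcnk1 (10.5) were also high. Among the pore subunits of the Kcna, Kcnb, Kcnc and Kcnd families, Kcnd2, which carries the fast A-type current, was the highest (7.18), ahead of Kcna1 (5.84), and Kcnh3, a pore subunit of the ether-a-go-go group, stood above both (9.45). The silent subunits stayed lower, from 3.53 for Kcnf1 down to 0.00366 for Kcnv2. The level of all channel genes together, summed over their representative transcripts, was 1018 to 1104 CPM in the acute unlesioned and 914 to 932 CPM in the acute lesioned libraries, which did not overlap, and 1000 to 1072 and 898 to 1011 CPM in the chronic unlesioned and lesioned libraries, which did.

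**Figure D1:**
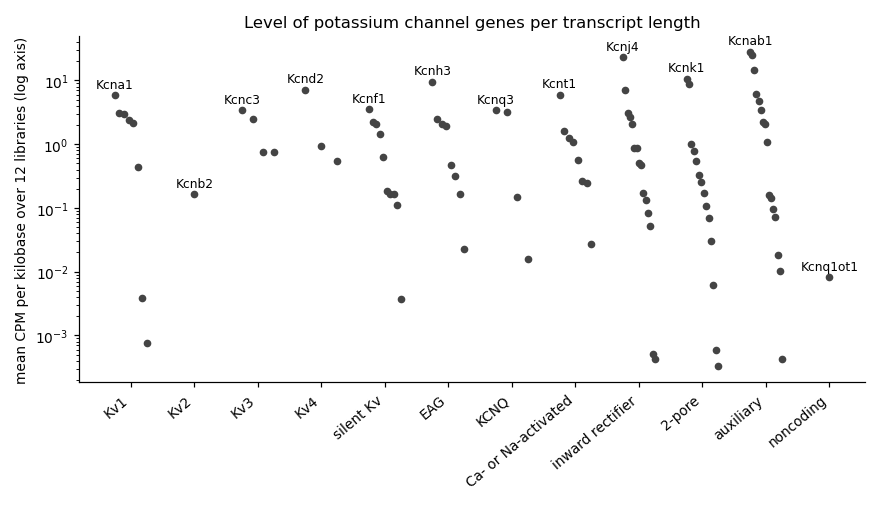
Mean level of the channel genes reported here, one point per gene, in CPM per kilobase of transcript over the 12 libraries (log axis), by subunit group. The highest member shown in each group is named, and Kcnab1, Kcnip2 and Kcnj4 lie above 20 CPM per kilobase.

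Of the 94 genes, 76 had enough counts to be tested in all 5 comparisons and 16 in none. The untested ones were Kcna7, Kcna10, Kcne1, Kcne2, Kcne3, Kcnh8, Kcnj1, Kcnj13, Kcnj15, Kcnk15, Kcnk16, Kcnk18, Kcnmb3, Kcnn4, Kcnq1 and Kcnv2. A gene was called where the edgeR quasi-likelihood test gave an adjusted p under 0.05 over all transcripts tested, and log2 fold changes (log2 FC) are given with their standard error (SE).

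The first comparison asked how a single dose of L-DOPA left the lesioned against the unlesioned striatum. Most channel genes did not pass the test, and those that did were chiefly lower on the lesioned side: 15 of the 77 tested were lower (19.5%), against 7.16% of all 20402 genes tested, and 2 were higher (2.6%), against 8.16% of all genes. Their median log2 FC was -0.12, against 0.02 over all genes. The lower genes included pore subunits of the Kcna and Kcnd families and Kcnb2, 3 of 9 silent subunits and 3 of 12 inward rectifiers, whereas both risen genes encode auxiliary subunits. Same-numbered libraries varied together and were taken as pairs in a fit with a replicate block. The main calls, the figures and all other fits, those with 1 library left out among them, do not use the pairs. With the replicate block 31 were called, 25 lower and 6 higher, against 11.8% and 13.2% of all genes in that fit. These 31 held all 17, and those added included Kcna2, Kcnf1, Kcnh1, Kcnh4, Kcnh7, Kcnk2, Kcnq3, Kcnq5 and Kcns1 as lower and Kcne4, Kcng4, Kcnj16 and Kcnn2 as higher. Leaving out acute unlesioned replicate 3 reduced the 17 calls to 11, and the share of all genes in that fit was not counted. With the summed cortical markers as a covariate, 13 of the 17 remained and 7 others were called, 5 higher and 15 lower in all, against 8.43% and 6.31% of all genes in that fit. Marker genes moved in the same comparison: 2 of 6 astrocyte markers (Gfap, log2 FC 1.25, and Gjb6, 0.47), 2 of 6 microglia markers (C1qa, 0.47, and Tmem119, 0.28) and 1 of 7 oligodendrocyte markers were higher and none of these lists' genes was lower, and of the 9 medium spiny neuron markers 4 were higher (Penk, 0.94, was the largest) and 4 lower (Drd1a, the D1 dopamine receptor, -2.30, was the largest). Of the cortical markers Cux2 was higher (0.35) and Neurod6 lower (-1.83), and the choroid plexus marker Ttr was lower (-2.01). Beyond the fit with the cortical covariate, the part of these cells in the channel genes was not tested.

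Kcng1 showed the largest fall of any channel gene tested. This silent subunit, at chr2:168085617-168106632 on the minus strand (mm9), which alters channels formed by Kcnb subunits, stood at 7.93, 9.57 and 11.0 CPM in the acute unlesioned and at 1.65, 2.59 and 2.56 CPM in the acute lesioned libraries. Every lesioned library lay under every unlesioned one, a fall of 4.22-fold (log2 FC -2.08, SE 0.16, adjusted p = 3.56e-06). Kcnv1, another silent subunit, stood at 13.2, 11.5 and 11.8 CPM without and 7.17, 6.78 and 6.56 CPM with the lesion, again with no overlap (log2 FC -0.83, SE 0.07, adjusted p = 1.37e-05). The third silent subunit that fell, Kcns2, changed less, from 10.1 ± 0.59 to 7.80 ± 0.40 CPM (SD, n = 3; log2 FC -0.36, adjusted p = 0.00488).

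Kcnb2, a pore subunit of the kind that these silent subunits join, was also lower. It went from 1.08 ± 0.086 to 0.725 ± 0.074 CPM (SD, n = 3; log2 FC -0.58, adjusted p = 0.013), and the call was lost without acute unlesioned replicate 3 (adjusted p = 0.0536) and with the cortical covariate (0.0538).

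Within the Kcna family Kcna4 and Kcna5 were called. Kcna2 (log2 FC -0.30) missed the threshold, while DESeq2 (adjusted p = 0.0401) and the paired fit (0.0119) called it. Kcna4, an A-type subunit that inactivates within milliseconds, stood at 19.6, 17.6 and 17.1 CPM in the acute unlesioned and 11.1, 10.1 and 9.21 CPM in the acute lesioned libraries (log2 FC -0.83, SE 0.08, adjusted p = 3.86e-05). Kcna5, a slowly inactivating relative, stood at 8.58, 12.2 and 10.3 CPM against 5.45, 6.91 and 7.00 CPM (log2 FC -0.69, SE 0.13, adjusted p = 0.00413). Neither gene's groups overlapped. Kcna1, the most abundant member of the family, stood at 43.5 ± 1.3 and 41.2 ± 2.2 CPM (SD, n = 3; adjusted p = 0.459). Of the Kcnd genes, Kcnd2 passed the test at a small change (40.9 ± 1.4 to 33.5 ± 2.8 CPM, log2 FC -0.29, adjusted p = 0.0166) but not without acute unlesioned replicate 1 (adjusted p = 0.0508) or replicate 3 (0.0617). The 4 Kcnc genes, which serve fast-firing neurons, held 0 calls with edgeR, with 0 at an unadjusted p under 0.05 and 0 with DESeq2.

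Among inward rectifiers, Kcnj2 fell furthest. It is a strong rectifier of the type that sets the resting potential of spiny neurons, and it stood at 14.6, 12.6 and 12.4 CPM in the acute unlesioned and 9.40, 8.85 and 6.60 CPM in the acute lesioned libraries, without overlap (log2 FC -0.67, SE 0.11, adjusted p = 0.00268). Its more abundant relative Kcnj4 had a log2 FC of -0.01 (adjusted p = 0.971). Kcnj12, another gene of that type (log2 FC -0.32, adjusted p = 0.0434), and Kcnj9, a subunit of the G protein-gated channels (log2 FC -0.23, adjusted p = 0.0407), passed narrowly. With DESeq2 the adjusted p was 0.0622 for Kcnj12 and 0.0665 for Kcnj9, with summed transcripts it was 0.0913 and 0.0715, and for Kcnj9 it was 0.0525 with all 12 libraries and 0.11 with the cortical covariate. Kcnj9 passed in none of the 6 fits with 1 library left out (0.0523 to 0.134), Kcnj12 only in the fit without acute unlesioned replicate 1 (otherwise 0.0542 to 0.142).

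The calcium-activated channel gene Kcnn3, whose channel follows bursts of spikes with a pause, fell from 8.64 ± 0.45 to 6.42 ± 0.068 CPM (SD, n = 3; log2 FC -0.42, SE 0.06, adjusted p = 0.00117). In the ether-a-go-go group only Kcnh5 passed (log2 FC -0.48, adjusted p = 0.0226), and it did so in 2 of 6 fits with 1 library left out, with adjusted p from 0.0504 to 0.0729 in the fits without acute lesioned replicate 2 or without acute unlesioned replicate 1, 2 or 3. With the cortical covariate the log2 FC of Kcnh5 was -0.31 (adjusted p = 0.181), and with all 12 libraries the adjusted p was 0.0708. Among the Kcnq genes, Kcnq3 (log2 FC -0.28, adjusted p = 0.0823) and Kcnq5 (-0.20, 0.0552) missed the threshold, and the paired fit called both (0.0393 and 0.0189). Of the leak channels, 0 of 10 were called, with 1 at an unadjusted p under 0.05, Kcnk2, which DESeq2 and the paired fit called (paired log2 FC -0.26, adjusted p = 0.0126).

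The auxiliary subunits moved both ways. Kcnab1, a partner of Kcna channels and the highest channel gene per length, fell from 114.0 ± 6.7 to 83.1 ± 7.8 CPM (SD, n = 3; log2 FC -0.45, SE 0.07, adjusted p = 0.00211), whereas its relative Kcnab3 rose. Kcnab3 stood at 3.53, 3.36 and 3.92 CPM in the unlesioned and 4.92, 4.50 and 5.66 CPM in the lesioned libraries (log2 FC 0.49, SE 0.09, adjusted p = 0.00596), and it lost the call when all 12 libraries were fitted together (adjusted p = 0.131). Exons of Kcnab3 overlap a noncoding transcript on the opposite strand in the GENCODE annotation of mm9, and without strand information reads of such pairs cannot be told apart. Genes on the opposite strand also overlap exons of Kcna6, Kcnd3, Kcnh7, Kcnj3, Kcnj13, Kcnmb4 and Kcnq5, those of Kcnh7 (Gca) and Kcnj13 (Gigyf2) being protein-coding, and exons of Kcnab2 overlap another transcript on the same strand. Kcnip3 encodes a calcium sensor that binds Kcnd channels and is also known as the transcriptional repressor DREAM. It stood at 22.6, 21.0 and 23.4 CPM against 15.6, 14.4 and 16.8 CPM, with no overlap (log2 FC -0.51, SE 0.07, adjusted p = 0.000666).

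The other risen gene, Kcne1l (also named Kcne5), encodes a small membrane protein that dampens the current of some channels. Kcne1l, at chrX:138739295-138740837 on the minus strand (mm9), stood at 1.40, 1.84 and 1.95 CPM in the acute unlesioned and at 3.72, 3.58 and 3.95 CPM in the acute lesioned libraries, with every lesioned value above every unlesioned one. It rose 2.19-fold (log2 FC 1.13, SE 0.12, adjusted p = 7.48e-05).

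**Figure D2:**
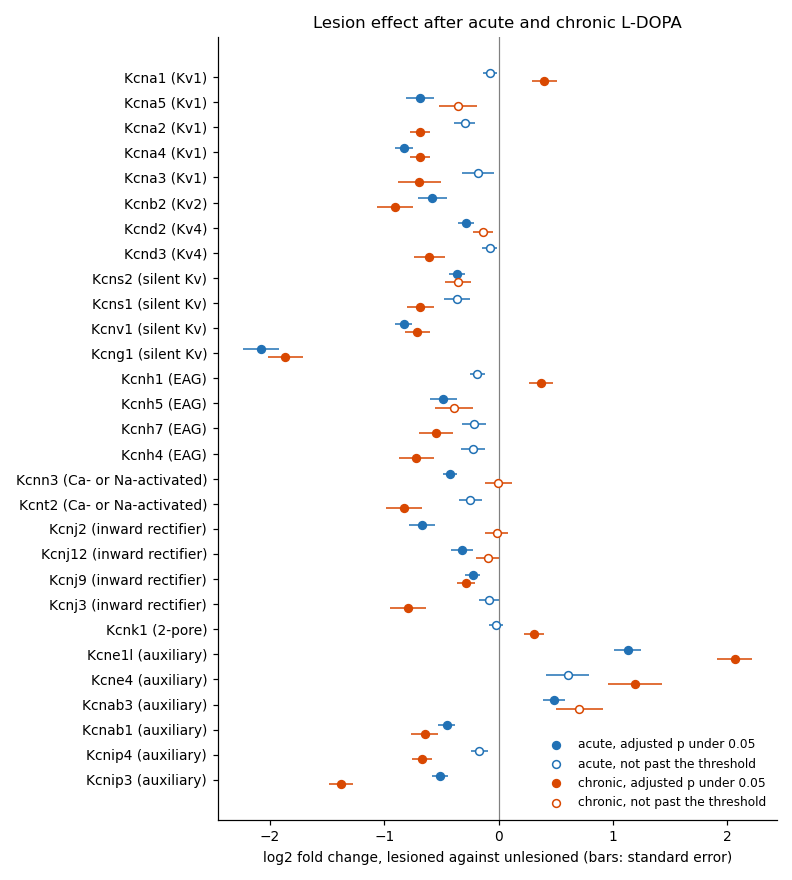
Log2 fold change of the lesioned against the unlesioned striatum (points, bars are standard errors, 6 libraries per comparison) for channel genes called after acute or chronic L-DOPA, ordered by subunit group. Filled points passed an adjusted p of 0.05. Kcng1 lies farthest left after both treatments and Kcne1l farthest right.

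After 9 days of L-DOPA the same comparison again gave more lower than higher channel genes. Of 78 tested, 17 were lower (21.8%), against 5.2% of all 19742 genes tested, and 5 were higher (6.41%), against 8.46%, and the median log2 FC was -0.08 against -0.01 over all genes. The lower genes included 3 Kcna genes, Kcnb2, Kcnd3, 3 silent subunits, 2 ether-a-go-go genes, Kcnt2, 2 G protein-gated inward rectifiers and 3 auxiliary subunits, and the higher ones were Kcna1, Kcnh1, Kcnk1, Kcne4 and Kcne1l. With the replicate block 37 were called, 28 lower and 9 higher, against 11.4% and 12.8% of all genes in that fit. They held all 22, and those added included Kcna5, Kcna6, Kcnc2, Kcnc4, Kcnh3, Kcnh5, Kcnmb2, Kcnq3, Kcnq5 and Kcns2 as lower and Kcnab3, Kcnip2, Kcnj10 and Kcnn1 as higher. Without chronic unlesioned replicate 2, the library with choroid plexus RNA, 23 were called, 4 higher and 19 lower, of which 18 were among the 22, against 7.32% of all genes higher and 5.05% lower in that fit. With the summed cortical markers as a covariate, 13 of the 22 remained and no others were called, 4 higher and 9 lower, against 5.34% and 2.21% of all genes in that fit. Among the markers, Gfap was the only astrocyte marker of 6 to pass (log2 FC 1.96), no microglia or oligodendrocyte marker passed, and of the 9 medium spiny neuron markers Penk (1.12) and Tac1 (0.64) were higher and Drd1a (-1.32) lower. Of 3 cholinergic interneuron markers, Slc5a7, the choline transporter, was lower (log2 FC -0.35, adjusted p = 0.0305), and so was Ttr of the choroid plexus list (-8.34), which was high in chronic unlesioned replicate 2. The part of these cells in the channel genes was not tested.

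The silent subunit Kcng1 again fell most, from 9.39, 8.80 and 9.00 CPM to 3.15, 1.87 and 2.47 CPM, values apart on both sides (log2 FC -1.87, SE 0.15, adjusted p = 2.39e-05). Kcnv1 stood at 13.0, 11.5 and 13.9 CPM in the chronic unlesioned and 8.81, 6.92 and 7.73 CPM in the chronic lesioned libraries (log2 FC -0.71, SE 0.11, adjusted p = 0.00173). Kcns1 also passed here (2.09 ± 0.070 to 1.30 ± 0.11 CPM, SD, n = 3; log2 FC -0.69, adjusted p = 0.00351). Kcnb2 fell with a log2 FC of -0.91 (adjusted p = 0.00368).

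In the Kcna family, genes moved in opposite directions. Kcna4 stood at 19.8, 17.7 and 17.1 CPM in the chronic unlesioned and 12.0, 10.9 and 10.9 CPM in the chronic lesioned libraries (log2 FC -0.69, SE 0.09, adjusted p = 0.000468), and Kcna2, a subunit of axons, fell from 10.5 ± 0.54 to 6.54 ± 0.54 CPM (SD, n = 3; log2 FC -0.69, adjusted p = 0.000647). Kcna1, with which Kcna2 forms mixed channels along axons, rose. It stood at 58.8, 47.3 and 55.4 CPM without the lesion and at 79.2, 64.2 and 69.9 CPM with it, all lesioned values being the higher (log2 FC 0.40, SE 0.11, adjusted p = 0.0335). That call was lost without chronic lesioned replicate 1 (adjusted p = 0.13) or 3 (0.089) and without chronic unlesioned replicate 2 (0.0816) or 3 (0.0838), whereas the paired fit gave 0.000473. Kcna3 fell (log2 FC -0.69, adjusted p = 0.0366), but in 4 of 6 fits with 1 library left out, those without chronic lesioned replicate 1 or 3 or chronic unlesioned replicate 1 or 3, it did not pass (0.0729 to 0.157), nor with summed transcripts (0.0848) or the cortical covariate (log2 FC -0.47, adjusted p = 0.28). With summed transcripts Kcna1 also missed the threshold (0.0568).

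The Kcnd genes and the Kcnip genes, whose proteins bind Kcnd channels, did not move as one. Kcnd3, Kcnip3 and Kcnip4 were lower, and Kcnd1 (log2 FC 0.10, adjusted p = 0.629), Kcnd2, Kcnip1 (-0.05, 0.914) and Kcnip2 did not pass. Kcnip3, at chr2:127282234-127347106 on the minus strand (mm9), stood at 20.8, 20.2 and 23.2 CPM in the unlesioned and at 7.09, 8.34 and 9.20 CPM in the lesioned libraries, a fall of 2.6-fold (log2 FC -1.38, SE 0.11, adjusted p = 1.43e-05). Kcnip4, at chr5:48780742-48901000 on the minus strand (mm9), a calcium sensor of the same family, stood at 8.65, 8.87 and 8.55 CPM against 5.91, 5.47 and 5.00 CPM (log2 FC -0.67, SE 0.09, adjusted p = 0.000694). No lesioned library of either gene reached an unlesioned one. Kcnd3 fell from 7.54 ± 0.43 to 4.95 ± 1.0 CPM (SD, n = 3; log2 FC -0.61, adjusted p = 0.0154; 0.067 without chronic unlesioned replicate 3 and 0.108 with the cortical covariate), and its exons overlap a transcript on the opposite strand. Kcnd2 did not pass (log2 FC -0.14, adjusted p = 0.355), and the more abundant Kcnip2 had a log2 FC of 0.33 (adjusted p = 0.215, paired fit 0.0408). Kcnab1 fell to 64.9 ± 11 CPM from 102 ± 3.8 CPM (log2 FC -0.65, SE 0.12, adjusted p = 0.00486).

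Kcnj3 encodes the central subunit of G protein-gated inward rectifiers, which open when receptors such as the dopamine D2 receptor are active. It stood at 6.14, 5.57 and 5.87 CPM in the chronic unlesioned and 3.76, 3.97 and 2.42 CPM in the chronic lesioned libraries, without overlap (log2 FC -0.79, SE 0.16, adjusted p = 0.00912). Its partner Kcnj9 passed narrowly (log2 FC -0.29, adjusted p = 0.0423), in none of the 6 fits with 1 library left out (0.0800 to 0.157) and not with DESeq2 (0.0541), summed transcripts (0.0676) or the cortical covariate (0.212). Exons of Kcnj3 overlap a noncoding RNA on the opposite strand. With the cortical covariate the adjusted p of Kcnj3 was 0.0803.

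Kcnt2, a sodium-activated channel gene, and Kcnh4, of the ether-a-go-go group, were the other large falls. Kcnt2 stood at 1.23, 1.32 and 1.65 CPM against 0.877, 0.750 and 0.748 CPM (log2 FC -0.83, SE 0.16, adjusted p = 0.0067), and Kcnh4 at 9.39, 7.14 and 8.28 CPM against 4.79, 4.04 and 6.23 CPM (log2 FC -0.72, SE 0.15, adjusted p = 0.0127). Neither overlapped between the sides. Kcnh4 missed the threshold without chronic lesioned replicate 1 (adjusted p = 0.0562) or chronic unlesioned replicate 1 (0.0535), and with the cortical covariate the values were 0.0738 for Kcnt2 and 0.0748 for Kcnh4. Kcnh7 also fell (log2 FC -0.54, adjusted p = 0.0386), but its exons overlap the gene Gca on the opposite strand, and its call did not hold without chronic lesioned replicate 2 or 3 or chronic unlesioned replicate 2 or 3 (0.0527 to 0.152), with summed transcripts (0.0844) or with the cortical covariate (log2 FC -0.32, adjusted p = 0.241).

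Against this, Kcne1l rose further than after a single dose. Its level was 1.05, 1.62 and 1.48 CPM in the chronic unlesioned and 5.34, 6.42 and 5.67 CPM in the chronic lesioned libraries, 4.19-fold higher (log2 FC 2.07, SE 0.15, adjusted p = 9.69e-06). Kcne4, a related small subunit at a low level, went from 0.203 ± 0.042 to 0.472 ± 0.060 CPM (SD, n = 3; log2 FC 1.20, SE 0.24, adjusted p = 0.00829). The ether-a-go-go channel gene Kcnh1 stood at 17.3, 15.2 and 19.1 CPM in the unlesioned and 24.9, 21.1 and 20.8 CPM in the lesioned libraries (log2 FC 0.37, SE 0.11, adjusted p = 0.0453). The leak channel gene Kcnk1 stood at 19.9, 23.2 and 21.0 CPM against 25.7, 25.1 and 28.5 CPM (log2 FC 0.31, SE 0.09, adjusted p = 0.0453). All 4 genes were higher in every lesioned library than in every unlesioned one, but the calls of Kcnh1 and Kcnk1 depended on single libraries: Kcnh1 missed the threshold without chronic lesioned replicate 1 or 3 or chronic unlesioned replicate 1 or 2 (0.0708 to 0.154), and Kcnk1 without chronic lesioned replicate 1 or 3 or chronic unlesioned replicate 1 or 3 (0.0996 to 0.161) and with the cortical covariate (0.243). Both missed it with summed transcripts (0.0694 and 0.0566), and Kcnh1 with 1 transcript per gene (0.0511). The paired fit gave 0.00669 for Kcnh1 and 0.0103 for Kcnk1. Kcnq3 (log2 FC -0.33, adjusted p = 0.0909) and Kcnq5 (-0.36, 0.0807) again missed the threshold, the paired fit called both (0.0211 and 0.00471), and DESeq2 called Kcnq5. The Kcnc genes held 0 calls by edgeR and DESeq2 and 0 at an unadjusted p under 0.05, while the paired fit called Kcnc2 (log2 FC -0.89, adjusted p = 5.76e-05) and Kcnc4 (-0.54, 0.0287).

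The lesion comparisons of both treatments use separate libraries. A total of 9 genes were called in both, 8 lower (among them Kcna4, Kcnab1, Kcnb2, Kcng1, Kcnip3, Kcnj9 and Kcnv1) and 1 higher (Kcne1l), which is 52.9% of the acute and 40.9% of the chronic calls. Of all genes called, 1019 were called in both, which is 32.6% of the acute and 37.8% of the chronic calls. With the replicate block, 22 were called in both, 18 lower in both, 3 higher in both and 1, Kcnh1, lower after acute (log2 FC -0.19) and higher after chronic L-DOPA (0.37). These are 71% of the acute and 59.5% of the chronic calls of that fit, against 41.1% and 43.9% for all genes.

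Which of these lesion effects changed with repeated dosing was tested as the difference of the log2 fold changes (chronic minus acute) over all 12 libraries. Of 78 genes tested, 4 had a higher difference (5.13%), against 3.53% of all 20682 genes, and 2 a lower one (2.56%), against 1.56%. The rise of Kcne1l was larger after chronic dosing (difference 0.94, SE 0.20, adjusted p = 0.0149), the fall of Kcnip3 was deeper (-0.86, SE 0.13, adjusted p = 0.00127), and so was that of Kcnip4 (-0.50, SE 0.11, adjusted p = 0.0179). Kcnj2, lower after the acute dose, stood at 13.1, 11.7 and 11.2 CPM in the chronic unlesioned and 12.8, 12.5 and 10.3 CPM in the chronic lesioned libraries, which overlap, and its difference was 0.65 (SE 0.17, adjusted p = 0.0405). Kcna1 (0.48, SE 0.13, adjusted p = 0.0428) and Kcnh1 (0.56, SE 0.13, adjusted p = 0.0227) were called higher with the lesion after chronic dosing and not after the acute dose. With summed transcripts Kcna1 (0.0775) and Kcnj2 (0.105) missed the threshold. Among the markers, Drd1a (difference 0.98, adjusted p = 0.00507) and Slc5a7 (-0.51, 0.0458) also passed, and their part in these genes was not tested.

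Kcne1l and Kcnip3 kept this call in every fit with 1 library left out. Kcnip4 missed it without acute unlesioned replicate 2 (adjusted p = 0.062) or 3 (0.0564), and Kcnh1 without acute unlesioned replicate 1 (0.0692), acute lesioned replicate 2 (0.065) or chronic lesioned replicate 1 (0.0558). Kcna1 kept it only without chronic unlesioned replicate 1 or chronic lesioned replicate 2 (otherwise 0.0517 to 0.103). Kcnj2 missed it without any acute unlesioned library, without acute lesioned replicate 2 or 3, without chronic unlesioned replicate 2 or 3 and without chronic lesioned replicate 1 (0.0571 to 0.106). With the replicate block all 6 passed and 18 were called in all, 8 higher and 10 lower, against 7.3% and 6.13% of all genes. Leaving out chronic lesioned replicate 2 raised the 6 calls to 11, and leaving out other single libraries lowered them to as few as 3, in the fits without any 1 of the acute unlesioned libraries, acute lesioned replicate 2 or chronic lesioned replicate 1. The share of all genes in these fits was not counted.

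**Figure D3:**
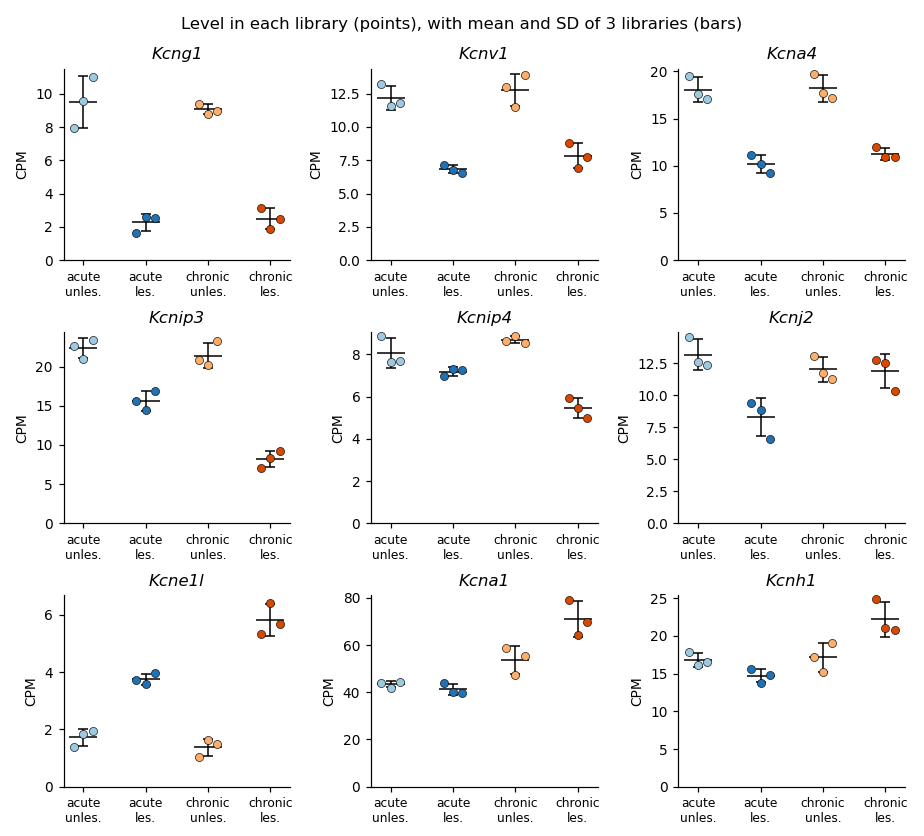
Level of 9 channel genes in each library (points, CPM) with the mean and SD of the 3 libraries of a group (bars). The lesioned groups lie below both unlesioned groups for Kcng1, Kcnv1, Kcna4 and Kcnip3 and above them for Kcne1l, and Kcna1 and Kcnh1 are highest in the chronic lesioned group.

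Promoter sequence is shown for Kcne1l, the gene with the largest rise, and for Kcnip3 and Kcnip4. Both Kcnip genes were lower on the lesioned side after chronic L-DOPA (after the acute dose Kcnip4 was not called, log2 FC -0.17, adjusted p = 0.159). For each of them 1 listed promoter holds an AP-1 motif, the letters bound by Fos and Jun proteins, and that promoter is shown. The sequences are RefSeq's (build GRCm38.p6) and give the 250 bases before the annotated start, 5′ to 3′ on the gene's strand, with the motif in capitals. They lie at chrX:142306199-142306448 for Kcne1l, the only start listed for it, at chr2:127522095-127522344 for Kcnip3, 1 of 3 starts, and at chr5:49285660-49285909 for Kcnip4, 1 of 2 starts, all on the minus strand. The other listed starts of Kcnip3 and Kcnip4 held no AP-1 motif. The Kcnip3 and Kcnip4 transcripts counted here are placed on mm9, and their coordinates were not converted to this build. Whether they begin at the starts shown was not determined, so the AP-1 letters are not assigned to the transcripts that fell.
Kcne1l: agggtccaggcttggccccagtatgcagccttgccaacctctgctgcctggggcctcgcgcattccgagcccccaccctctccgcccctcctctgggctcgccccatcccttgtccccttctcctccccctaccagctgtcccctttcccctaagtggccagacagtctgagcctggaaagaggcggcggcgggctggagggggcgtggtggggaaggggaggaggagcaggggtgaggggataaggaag
Kcnip3: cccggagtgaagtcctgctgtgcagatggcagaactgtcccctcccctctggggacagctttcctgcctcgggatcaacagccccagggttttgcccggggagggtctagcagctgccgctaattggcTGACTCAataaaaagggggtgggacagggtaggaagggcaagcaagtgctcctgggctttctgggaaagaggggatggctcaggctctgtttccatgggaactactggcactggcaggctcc
Kcnip4: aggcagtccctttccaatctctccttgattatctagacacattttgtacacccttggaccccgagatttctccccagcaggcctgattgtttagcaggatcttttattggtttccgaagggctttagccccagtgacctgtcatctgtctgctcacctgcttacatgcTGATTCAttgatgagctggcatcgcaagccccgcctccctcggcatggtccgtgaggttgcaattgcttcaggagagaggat
The AP-1 letters TGANTCA were searched on both strands in windows from 250 bases before to 50 after the start. They begin 122 bases before the start in Kcnip3 and 82 bases before it in Kcnip4. Of 94 such windows from 69 matched channel genes, 4 held them (4.26%; Kcne3, Kcnip3, Kcnip4 and Kcnk2), against 7.81% of 32851 windows of all genes. The cAMP response element TGACGTCA was found in 0 channel windows and in 1.79% of all windows, and its core TGACG, which the longer motif contains, in 18 (19.1%) against 20.8%. The Kcne1l window held none of the 3 motifs, and this says only that these letters are absent from it.

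The lesioned striatum was then compared between chronic and acute L-DOPA. Of 76 channel genes tested, 12 were higher (15.8%), against 12.5% of all 19790 genes, and 10 were lower (13.2%), against 13.1%, with a median log2 FC of 0.04 against -0.02. These shares lie near those of all genes. Since the comparison uses the same lesioned libraries as both lesion comparisons, its values are given beside them and not as separate evidence. The count moved with single libraries, from 13 without acute lesioned replicate 2 to 34 without chronic lesioned replicate 2. The share of all genes called in those fits was not counted, so this is not read as a result about channel genes.

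Kcna1 rose most. Its acute lesioned libraries stood at 43.8, 40.0 and 39.8 CPM and its chronic lesioned ones at 79.2, 64.2 and 69.9 CPM, with no overlap (log2 FC 0.79, SE 0.09, adjusted p = 0.000211). In the unlesioned striatum the level went from 43.5 ± 1.3 to 53.8 ± 5.9 CPM (SD, n = 3; log2 FC 0.31, adjusted p = 0.0687). Kcnab3, whose protein joins Kcna channels, reached 8.07, 9.42 and 8.05 CPM in the chronic lesioned libraries (log2 FC 0.76, SE 0.10, adjusted p = 0.000671). Kcne1l (log2 FC 0.63, SE 0.10, adjusted p = 0.00129) and Kcnh1 (0.59, SE 0.09, adjusted p = 0.00126) were also higher, the latter from 15.6, 13.8 and 14.9 CPM in the acute lesioned libraries.

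Several genes called lower on the lesioned side after the acute dose stood higher in chronic lesioned than in acute lesioned libraries. Kcnj2 rose with a log2 FC of 0.52 (SE 0.13, adjusted p = 0.0151; 0.0682 without chronic lesioned replicate 1), and Kcnn3 with one of 0.44 (SE 0.10, adjusted p = 0.00862). Kcna5 stood at 9.58, 7.15 and 10.8 CPM after chronic dosing, above every acute lesioned library (log2 FC 0.51, SE 0.15, adjusted p = 0.028), but missed the threshold without chronic lesioned replicate 1 or 3 or acute lesioned replicate 1 or 2 (0.0585 to 0.109). Kcnj11, the pore subunit of neuronal ATP-sensitive channels (0.35), Kcnh2 (0.34), Kcnf1 (0.33), Kcnh5 (0.52) and Kcnj9 (0.24) completed the higher genes, and each of these 5 lost its call without acute lesioned replicate 2 (adjusted p 0.0565 to 0.15). Leaving out acute lesioned replicate 1 also removed Kcnj11, Kcnh2 and Kcnj9, acute lesioned replicate 3 removed Kcnh5 and Kcnj9, chronic lesioned replicate 1 removed Kcnh5 and Kcnj9, chronic lesioned replicate 2 removed Kcnj9, and chronic lesioned replicate 3 removed Kcnj11, Kcnh2 and Kcnh5 (0.0523 to 0.172). Kcna5 (0.0528), Kcnh5 (0.0735) and Kcnj9 (0.0633) also missed the threshold with summed transcripts, Kcnj9 with DESeq2 (0.0767) and Kcnh2 with all 12 libraries (0.0945). Of the genes lower after the acute dose, only Kcnj2 passed the test of the difference of lesion effects. That difference was 0.43 for Kcnn3 (adjusted p = 0.102), 0.33 for Kcna5 (0.49), 0.09 for Kcnh5 (0.863) and -0.06 for Kcnj9 (0.806). The unlesioned log2 FC was -0.14 for Kcnj2, 0.01 for Kcnn3, 0.18 for Kcna5, 0.42 for Kcnh5 and 0.30 for Kcnj9, none called. Kcnj9 was still called lower on the lesioned side after chronic L-DOPA.

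The genes that were lower after chronic dosing came from several groups. Kcnt2 stood at 1.69, 1.39 and 1.58 CPM in the acute lesioned and 0.877, 0.750 and 0.748 CPM in the chronic lesioned libraries (log2 FC -0.98, SE 0.14, adjusted p = 0.000804), and Kcnh4 at 7.90, 9.50 and 9.73 CPM before against 4.79, 4.04 and 6.23 CPM (log2 FC -0.84, SE 0.14, adjusted p = 0.00241). Kcnip3 (log2 FC -0.92, SE 0.10, adjusted p = 0.000178) and Kcnip4 (-0.40, SE 0.09, adjusted p = 0.00876) were lower as well. Groups of all 4 genes were apart. Kcnd3 (-0.45), Kcna3 (-0.53) and Kcnn2 (-0.36) were lower as well. Kcnn2 missed the threshold without acute lesioned replicate 2 (adjusted p = 0.0733), Kcnd3 without chronic lesioned replicate 1 or 3 or acute lesioned replicate 2 or 3 (0.0788 to 0.106), and Kcna3 without chronic lesioned replicate 1 or 3 or acute lesioned replicate 1 or 3 (0.0993 to 0.125). Kcna3 also missed it with DESeq2 (0.107), 1 transcript per gene (0.0505), summed transcripts (0.11) and the cortical covariate (0.0562), and Kcnd3 with summed transcripts (0.069).

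Kcna6, Kcnj8 and Kcnk13 made up the rest of the lower genes. Kcna6 stood at 17.1, 14.0 and 13.7 CPM in the acute lesioned and 8.16, 12.2 and 8.23 CPM in the chronic lesioned libraries (log2 FC -0.65, SE 0.15, adjusted p = 0.0101; 0.053 without chronic lesioned replicate 1), and its exons overlap a noncoding RNA on the opposite strand. Kcnj8, the pore subunit of vascular ATP-sensitive channels, stood at 1.45, 1.41 and 1.16 CPM against 0.741, 0.759 and 1.04 CPM (log2 FC -0.65, SE 0.17, adjusted p = 0.017), a call lost without chronic lesioned replicate 1 (0.0723) or acute lesioned replicate 1 (0.0675) or 2 (0.064). Kcnk13, a leak channel gene known from microglia, went from 3.62 ± 0.48 to 2.41 ± 0.092 CPM (SD, n = 3; log2 FC -0.59, SE 0.11, adjusted p = 0.00495). Markers moved in this comparison as well, most of them downward: 7 of 7 oligodendrocyte, 4 of 6 microglia, 3 of 6 astrocyte, 2 of 7 endothelial and mural, 4 of 5 blood and 2 of 3 cholinergic interneuron markers (Slc5a7, log2 FC -0.48, and Chat, -0.33) were lower. Of the 9 medium spiny neuron markers Drd1a (1.06) and Pde10a (0.39) were higher and Drd2 (-0.46) and Adora2a (-0.60) lower, of the 12 choroid plexus markers Kl (1.79) and Clic6 (1.06) were higher and Aqp1 (-1.98) lower, and of the 8 cortical markers Fezf2 was lower (-0.84). The summed microglia markers lay at 62.9 to 74.8 CPM in the acute lesioned and 42.1 to 52.3 CPM in the chronic lesioned libraries, the oligodendrocyte markers at 2169 to 3580 and 1198 to 2155 CPM, and the endothelial and mural markers at 49.6 to 60.8 and 38.3 to 48.5 CPM. Of the choroid plexus markers, Slc4a5 was at 0 in chronic lesioned replicate 3. Aqp1 stood at 0.0342, 0.0463 and 0.0182 CPM in the chronic lesioned libraries, near the level of 3 counts. Beyond the fit with the cortical covariate, the part of these cells in the channel genes was not tested.

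In the unlesioned striatum, chronic against acute L-DOPA gave 0 calls among 77 channel genes with edgeR, against 1.07% of all 20290 genes higher and 1.99% lower. A total of 24 had an unadjusted p under 0.05 (31.2%), 14 higher and 10 lower, against 22.8% of all genes. DESeq2 called 7, of which Kcna1 (log2 FC 0.31), Kcnip1 (0.54), Kcnj3 (0.36), Kcnj9 (0.30) and Kcnq5 (0.33) were higher and Kcnip2 (-0.30) and Kcnk13 (-0.55) lower, against 2.7% of all genes higher and 4.3% lower with that tool. Without chronic unlesioned replicate 2, edgeR called 13, namely Kcna1, Kcng3, Kcnh5, Kcnj3, Kcnj9, Kcnk9, Kcnma1 and Kcnq5 as higher and Kcna6, Kcng4, Kcnj10, Kcnk1 and Kcnk13 as lower, against 5.44% of all genes higher and 6.63% lower in that fit. With edgeR and all libraries the smallest adjusted p of the group was that of Kcnk13 (log2 FC -0.55, SE 0.13, adjusted p = 0.0501), whose level was 3.89 ± 0.21 CPM after acute and 2.64 ± 0.52 CPM after chronic dosing (SD, n = 3). Markers were lower in this comparison too, namely the microglia genes Tmem119 (log2 FC -0.63, adjusted p = 0.0218) and C1qa (-0.52, 0.0144), 2 of 6 on that list, the astrocyte gene Aqp4 (-0.55, 0.0393), the mural gene Vtn (-0.53, 0.0277) and the spiny neuron gene Drd2 (-0.33, 0.0401). The choroid plexus gene Clic6 (1.22, 0.0374) and the cortical gene Cux2 (0.52, 0.0274) were higher. The summed microglia markers lay at 57.1 to 59.6 CPM after acute and 40.5 to 51.8 CPM after chronic dosing, without overlap, and their part in Kcnk13 was not tested.

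**Figure D4:**
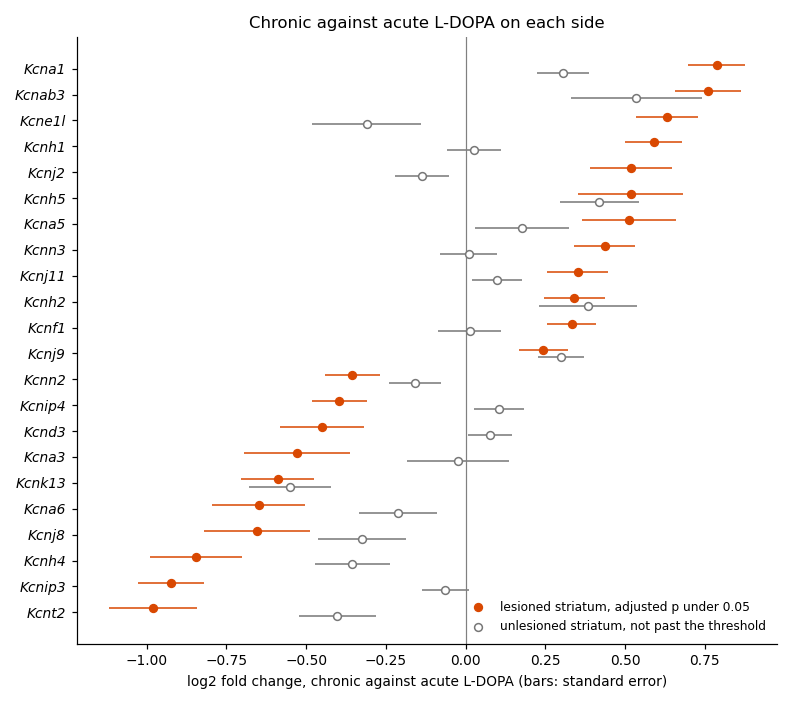
Log2 fold change of chronic against acute L-DOPA (points, bars are standard errors, 6 libraries per comparison) in the lesioned and the unlesioned striatum, for the 22 channel genes called in the lesioned striatum. Filled points passed an adjusted p of 0.05, and none of the unlesioned values did.

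Kcne2 and Kcnj13 were high in a single library. Kcne2, an auxiliary subunit abundant in choroid plexus, had 355 counts in chronic unlesioned replicate 2, or 3.06 CPM of that library's unscaled total (95% Wilson interval 2.76 to 3.4, for counting error only), and 0 to 9 counts in the other 11 libraries. Kcnj13, an inward rectifier of the same epithelium, had 314 counts there (2.71 CPM, interval 2.42 to 3.02) and 0 to 6 elsewhere. The summed choroid plexus markers of that library, 499.1 CPM, stood apart in the same way. Exons of Kcnj13 overlap the protein-coding gene Gigyf2 on the opposite strand. Neither Kcne2 nor Kcnj13 passed the filter on low counts. Without that filter both were called, higher in the chronic than in the acute unlesioned striatum and lower on the lesioned side after chronic L-DOPA, with nearly all counts in this 1 library.

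Replicate 2 of the chronic groups differed in another set of genes on both sides. Kcng4, a silent subunit, stood at 1.70 CPM in the unlesioned and 1.62 CPM in the lesioned library of that number and at 0.125 to 0.240 CPM in the other 4 chronic libraries. Kcnc2, a pore subunit of fast-spiking interneurons, stood at 9.86 and 6.30 CPM there, against 4.40 and 4.92 CPM in the other unlesioned and 2.18 and 2.33 CPM in the other lesioned libraries. Kcnc4 and Kcnmb2 were likewise highest in that replicate of each chronic group. Pvalb, used here as the marker of fast-spiking interneurons, was at 14.4 and 9.05 CPM in those libraries and at 1.94 to 3.15 CPM in the other chronic ones. Slc17a6, a gene of the cortical list, was also high there, at 2.69 and 0.759 CPM against 0.073 to 0.511 CPM. The sum of the cortical list was not highest there (11.5 and 6.46 CPM). Which cells or tissue set these libraries apart was not tested. Within each pair Kcnc2 was lower on the lesioned side, which the paired fit called and the unpaired fit did not (adjusted p = 0.234).

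**Figure D5:**
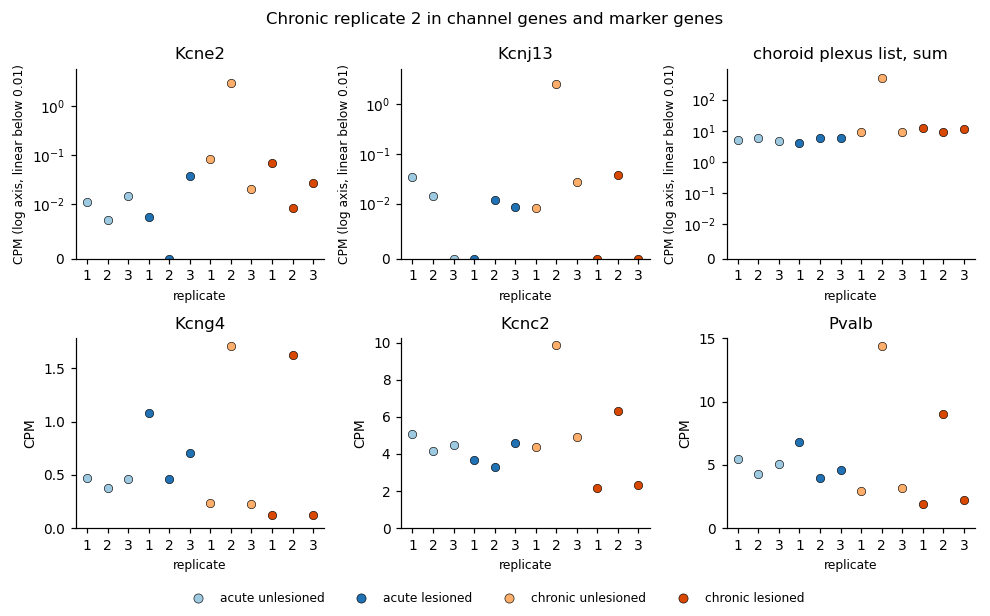
Level in each of the 12 libraries (CPM) of Kcne2, Kcnj13 and the summed choroid plexus markers (log axis, linear below 0.01 CPM) and of Kcng4, Kcnc2 and Pvalb (linear axis), by group and replicate number. The upper panels single out chronic unlesioned replicate 2, and the lower panels show both chronic libraries numbered 2 above the other chronic libraries.

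Kcnq1ot1, a noncoding RNA that shares the Kcnq1 locus on the opposite strand and encodes no channel, was taken by the naming rule. Its mean level was 0.682 CPM, and it was not called in the lesion comparisons (log2 FC 0.12 after acute and -0.63 after chronic L-DOPA, adjusted p = 0.663 and 0.0959).

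Of 22 genes of potassium currents that lie outside the naming rule, such as the pacemaker (Hcn) channels and partner or anchoring proteins, 20 were tested. In the acute lesion comparison 0 were higher and 3 lower, against 8.16% and 7.16% of all genes, and in the chronic one 2 were higher and 1 lower, near the 8.46% and 5.2% of all genes. Akap5, which anchors kinases at Kcnq and other channels, was lower in both (log2 FC -0.75, adjusted p = 4.58e-05, and -0.49, adjusted p = 0.042). Adam23 and Nedd4l were the others lower after the acute dose, and Hcn3 and Lrrc26, a subunit of calcium-activated channels, were higher after chronic dosing (log2 FC 0.82 and 0.95). In the lesioned striatum 3 were higher and 1 lower after chronic than after acute L-DOPA, against 12.5% and 13.1% of all genes, and in the unlesioned striatum 1 was higher and 0 lower, against 1.07% and 1.99%.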

How the data were processed

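RNA of striatal punches from 12 libraries, 3 per group, was sequenced after TruSeq preparation. The authors deposited whole-number read counts per transcript, on mouse build mm9, and their processing notes name DESeq; reads were mapped with the Genomatix Mining Station software, and the use of strand in counting is not given in the sources used here. Transcripts without a gene name (296, with 0.0485% of counts) were left out. Their normalized expression (12 columns) and 3 tables of their own comparisons, which hold fold changes, p-values and 36 per-sample columns, were not used.

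CPM are counts-per-million values of the library total scaled by TMM. Counts were fitted with edgeR 4.0.16 (limma 3.58.1, R 4.3.3; filterByExpr by group, TMM, quasi-likelihood test) over all transcripts, with Benjamini-Hochberg adjustment over all transcripts tested and 6 libraries per comparison, or 12 for the difference of lesion effects. The procedure was tested on simulated data. Alternatives were DESeq2 1.42.0 or its size factors, no filter, an adjusted p under 0.01, 1 transcript per gene, summed transcripts, a fit of all 12 libraries, a block for the replicate number, each library left out and, chosen after seeing the data, a cortical marker covariate. Plots used matplotlib 3.10.9 and tables pandas 2.3.3 under Python 3.11.15.

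Same-numbered lesioned and unlesioned libraries deviated together over 12796 genes of at least 1 CPM, with r of 0.478, 0.445 and 0.390 after acute and 0.519, 0.565 and 0.152 after chronic L-DOPA, each above the limit of 0.1 set for pairing (other numbers gave -0.321 to -0.109 and -0.516 to 0.155, so that chronic pair 3 did not stand out). The study describes the unlesioned side as a control within the same mouse, but its RNA-sequencing methods name no pairing of libraries. Between acute and chronic libraries the numbers pair nothing. The sources do not say which libraries come from separate animals, so p-values measure the spread between these libraries. Counting intervals cover counting error only, and 3 counts correspond to 0.0171 to 0.0347 CPM.

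The genes described with each library's value are, for each comparison, up to 5 called genes with the largest rise and 5 with the largest fall at a mean of at least 1 CPM, with Kcng1 and Kcne2. Others complete their group. Where called genes are said not to overlap between groups, this describes their values and adds no support, since the same libraries gave the call. The share of all genes without overlap was not counted. Markers of choroid plexus, cortical glutamatergic neurons, oligodendrocytes, astrocytes, microglia, endothelium and mural cells, blood, medium spiny neurons, cholinergic interneurons and fast-spiking interneurons (Pvalb alone) were summed. The channel genes and all lists were chosen with earlier results of these data known. A few channel genes count in the totals but are not reported here by name.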

Additional observations from a re-analysis of the deposited data

Results flagged for a closer look

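The lesion effect differed between chronic and acute L-DOPA, by the edgeR test of that difference over 12 libraries, for 6 channel genes. On the log2 scale the difference (chronic minus acute) was 0.94 for Kcne1l (adjusted p = 0.0149), 0.65 for Kcnj2 (0.0405), 0.56 for Kcnh1 (0.0227), 0.48 for Kcna1 (0.0428), -0.50 for Kcnip4 (0.0179) and -0.86 for Kcnip3 (0.00127). The calls of Kcna1 and Kcnj2 were lost in 10 and 8 of the 12 fits that left out 1 library.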

How the results depend on the processing

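The number of channel genes called was 17, 22, 22, 0 and 6 for the acute lesion effect, the chronic lesion effect, the lesioned and the unlesioned striatum (chronic against acute) and the difference of lesion effects. At an adjusted p under 0.01 these counts were 11, 13, 10 and 1, leaving aside the unlesioned striatum. With the replicate block (paired libraries) they were 31, 37, 21, 1 and 18, the numbers pairing nothing between acute and chronic libraries. The cortical covariate, chosen after seeing the data, gave 13 for the chronic lesion effect and 1 for the unlesioned striatum. The unlesioned count was 7 with DESeq2, 6 without a filter (Kcne2 and Kcnj13 among them, which are high in chronic unlesioned replicate 2 alone), 1 with 1 transcript per gene and 2 with all 12 libraries. Leaving out 1 library gave 11 to 20, 15 to 23, 13 to 34, 0 to 13 and 3 to 11, the highest unlesioned count without chronic unlesioned replicate 2. The cause was not tested. The share of all genes was counted for only some of these fits. Counts alone do not show whether channel genes changed more than all genes. For the genes described in full, 1180 values under an alternative kept their side of the threshold (some values that were not called changed sign among them, such as Kcna1 after acute and Kcnj2 after chronic L-DOPA), 58 lost a call, 37 gained one and 0 changed direction after a call. Genes at few counts limit the depth: 16 of 94 could not be tested.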

Other observations

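Cholinergic interneuron markers, 3 genes, summed to 18.8 to 22.2 CPM in the acute unlesioned, 20.2 to 25.4 CPM in the acute lesioned, 18.5 to 23.1 CPM in the chronic unlesioned and 16.4 to 18.4 CPM in the chronic lesioned libraries. In the lesioned striatum 2 of the 3 were lower after chronic than after acute L-DOPA, and the lesioned ranges did not overlap. Of the 3, Slc5a7 was also lower on the lesioned side after chronic L-DOPA (log2 FC -0.35, adjusted p = 0.0305) and in the difference of lesion effects (-0.51, 0.0458). Their part in the channel genes was not tested.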
